A study of Mus musculus with 4 samples.

Results

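Heme is made from glycine and succinyl-CoA by a chain of enzymes that starts in the mitochondrion, passes through the cytosol and ends in the mitochondrion again. Aminolevulinate synthase, the rate-limiting enzyme, exists as a form made in all cells (Alas1) and a form of red cell precursors (Alas2). Heme oxygenase (Hmox1) opens the heme ring, and biliverdin reductases act on the product. Red cell precursors need the pathway for haemoglobin, and all other blood cells need it for cytochromes and peroxidases.

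The messenger RNA of 9 genes of this pathway was followed in mouse LSK cells, the blood-forming cells negative for lineage markers and positive for Sca-1 and c-Kit, among them the stem cells and early progenitors. The genes were chosen by symbol (Alas1, Alas2, Alad, Uros, Urod, Cpox, Ppox, Fech and Hmox1), and all 9 were found among the 46517 genes of the expression table. The animals were C57BL/6 mice aged 8 to 10 weeks, either Setd2f/f, in which the floxed Setd2 gene is functional (2 libraries), or Setd2D/D, in which Setd2 is knocked out (2 libraries). The libraries of each genotype are called the floxed pair and the knockout pair. Setd2 encodes the methyltransferase that trimethylates lysine 36 of histone H3. How and when the gene was deleted, how many mice stand behind a library and whether RNA strand was kept is not stated in the labels, so that p-values reflect the spread among these 4 libraries alone, and that spread may be technical.

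Levels are in TPM, a unit that divides the estimated reads of a gene by its length and sets each library to the same total. Between 14360 and 14610 genes reached 1 TPM in a library. Setd2 itself was between 68.0 and 78.9 TPM in the floxed pair, against between 43.4 and 49.5 TPM in the knockout pair. Kit was at 224 and 249 TPM in the floxed pair, against 301 and 285 TPM in the knockout pair, and so higher in both Setd2D/D libraries. Ly6a, which encodes Sca-1, was between 46.5 and 128 TPM over the 4 libraries and was lower in both Setd2D/D libraries. The Setd2D/D replicate 1 library stood apart, with a correlation across genes of between 0.910 and 0.913 with the other 3, which correlated at between 0.934 and 0.959 with each other. Of 10 B lineage markers 8 were below 0 on the log2 scale (median -0.75), and the 10 markers of the sort and of stem cells had a median of -0.15. Of 8 tested mast cell and basophil markers 6 were above 0 (median 0.52), where the median of all genes tested was -0.06. Of these markers Gzmb, Fcer1a and Cma1 were under 1 TPM in both floxed libraries and entered the test through the knockout pair alone. For these genes a change above 0 was fixed by the filter given below.

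The pathway as a whole did not shift in one direction. Cpox was higher and Hmox1 lower in both Setd2D/D libraries by more than the spread between replicates, whereas Alad, Urod and Uros overlapped between genotypes and Alas2 was close to absent. The summed level of the 8 synthesis genes was 307 and 324 TPM in the floxed pair, against 299 and 368 TPM in the knockout pair, so that the groups overlapped. Differences between genotypes were tested with limma on log2(TPM + 1) over the 14755 genes with at least 1 TPM in at least 2 libraries, and every log2 change given is the knockout pair minus the floxed pair. Alas2 did not pass this filter, which left 8 of the 9 genes. Of these, 0 passed an adjusted p of 0.05 (limma, Benjamini-Hochberg), and 2, Cpox and Hmox1, had an unadjusted p under 0.05. Over all genes tested the shares were 0.0678% and 11.2%. The count of 2 became 1 without either Setd2f/f library, 3 without Setd2D/D replicate 1 and 4 without replicate 2, where the share of all genes was 3.75% and 4.58% (without Setd2f/f replicate 1 and 2), 11.1% and 19.8%. The authors' deposited table places 2 of the 9, Cpox and Alas1, past an FDR of 0.05 as higher and 0 as lower, where 1.51% of its 23955 genes are higher and 1.64% lower. The median log2 change of the 8 genes was 0.16, with 5 above 0 and 3 below, and that of all genes tested was -0.06. In such bulk libraries fewer cells of a type and less RNA per cell cannot be told apart.

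**Figure D1:**
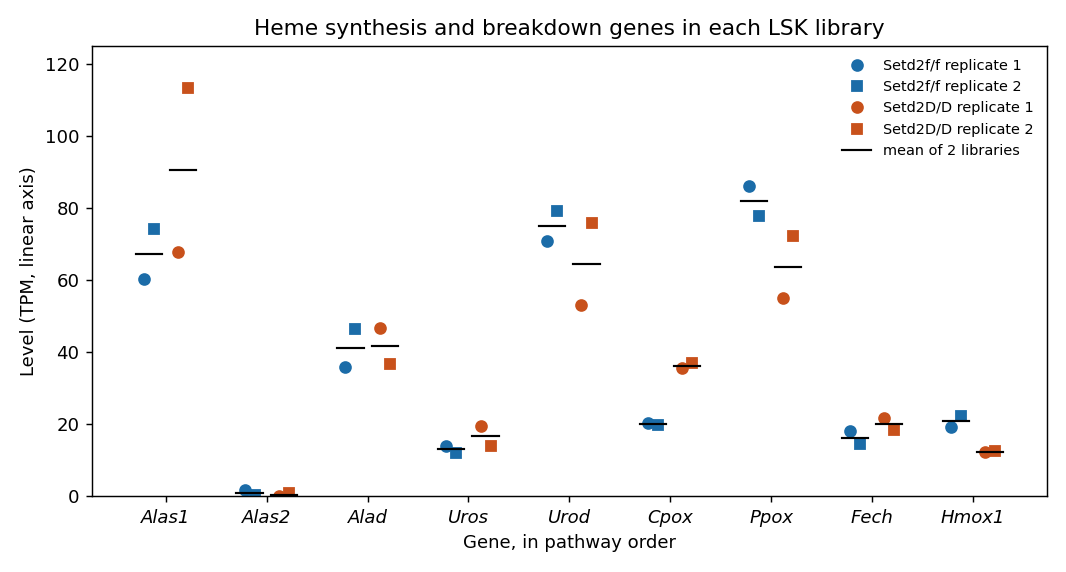
Level of each of the 9 genes in TPM (linear axis) in each library, in pathway order, with circles for replicate 1, squares for replicate 2 and a bar at the mean of each genotype. Cpox sits near 20.1 TPM in Setd2f/f and 36.3 TPM in Setd2D/D with little spread, while Alas1 in Setd2D/D is split between 67.8 and 113.5 TPM.

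Alas1 (ENSMUSG00000032786, GRCm38 chromosome 9, 106233455 to 106248654, minus strand) was the more abundant aminolevulinate synthase in every library. Its level was 60.3 and 74.3 TPM in the floxed pair, against 67.8 and 113.5 TPM in the knockout pair. The replicate 2 library of Setd2D/D was the high one, and the other Setd2D/D library lay inside the range of the Setd2f/f pair. The log2 change was 0.39, SE 0.28 (95% interval -0.34 to 1.11, limma adjusted p = 0.633). In the authors' deposited table, Alas1 rose, with a log2 change of 0.51 and an FDR of 0.00807. Leaving out Setd2D/D replicate 2 brought the limma change to 0.018, while leaving out replicate 1 of that genotype gave 0.75, so that the size of the difference rested on that 1 library. Of the floxed pair, leaving out replicate 1 gave 0.24 and leaving out replicate 2 gave 0.53.

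Alas2 (ENSMUSG00000025270, chromosome X, 150547375 to 150570638, plus strand), the erythroid form, was at 1.61 and 0.28 TPM in the floxed pair, against 0 and 0.93 TPM in the knockout pair. The values overlapped and none reached the level of any other gene of the pathway. With no filter on low values, the log2 change was -0.40, SE 0.53 (limma adjusted p = 0.815). The authors' deposited table has the opposite sign for it, a log2 change of 0.59 and an FDR of 0.958, at a mean log2 CPM of -0.78. At this depth no direction can be read for Alas2. Its exons share bases with those of Apex2 on the other strand. Apex2 was at 10.4 and 10.6 TPM in the floxed pair, against 24.1 and 15.7 TPM in the knockout pair. Without strand the reads of the shared bases cannot be told apart.

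The near absence of Alas2 stood beside higher levels of other erythroid genes. Of the 19 erythroid markers in the table, 17 were tested and all 17 had a higher level in both Setd2D/D libraries than in either Setd2f/f library, against 16.8% of all genes tested. Their median log2 change was 1.59, with 0 past an adjusted p of 0.05 by limma. An unadjusted limma p under 0.05 was reached by 14 of the 17, against 11.2% of all genes tested. The authors' deposited table places 13 of the 19 higher and 0 lower, against 1.51% and 1.64% of all its genes. The erythroid list was drawn up with earlier results of these data known and is no independent evidence of direction. Its genes Slc4a1 and Sptb were under 1 TPM in both floxed libraries and passed the filter through the knockout pair alone. The summed level of the 19 was 547 and 410 TPM in the floxed pair, against 1122 and 1011 TPM in the knockout pair. Klf1, an activator of red cell genes, was at 4.55 and 4.60 TPM in the floxed pair, against 19.1 and 19.7 TPM in the knockout pair. Gata1, the GATA factor of erythroid cells, was at 10.9 and 9.44 TPM and at 26.2 and 18.7 TPM. The part of erythroid cells in the values of Cpox and Alas1 was not tested.

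Cpox (ENSMUSG00000022742, chromosome 16, 58670292 to 58717636, plus strand) encodes coproporphyrinogen oxidase, the enzyme that brings the pathway back into the mitochondrion. It was at 20.4 and 19.8 TPM in the floxed pair, against 35.5 and 37.0 TPM in the knockout pair. The groups were far apart and the replicates of each genotype close together, at 20.1 ± 0.453 and 36.3 ± 1.08 TPM (mean ± SD, n = 2), a ratio of 1.80. The log2 change was 0.82, SE 0.15 (95% interval 0.42 to 1.21), and the limma p was 0.00338 before and 0.267 after adjustment over all genes. In the authors' deposited table, Cpox rose, with a log2 change of 0.90 and an FDR of 1.98e-07. When any 1 library was left out the change stayed between 0.79 and 0.85. Gpr15, whose exons share bases with Cpox on the other strand, was listed at 0 in all 4 libraries.

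The stretch before the Cpox start is shown because Cpox was the gene of the pathway with the clearest difference, and that of Alas2 because it is the pathway's erythroid form. RefSeq windows on GRCm38.p6 were found for 7 of the 9 genes, Fech and Hmox1 being the others. The bases before the start are printed 5′ to 3′ on the strand of the gene, and for Alas2 the window is cut where an annotated exon begins. Capitals mark matches to the core of a GATA site, searched on both strands as AGATAA with A or T as its first letter and A or G as its last.
Cpox, chr16:58669958-58670207, plus strand: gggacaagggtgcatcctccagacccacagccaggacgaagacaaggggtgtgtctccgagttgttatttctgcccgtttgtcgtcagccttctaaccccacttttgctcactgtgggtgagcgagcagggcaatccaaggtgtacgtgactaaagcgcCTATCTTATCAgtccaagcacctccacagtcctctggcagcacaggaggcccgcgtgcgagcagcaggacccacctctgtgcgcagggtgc
Alas2, chrX:150547167-150547374, plus strand: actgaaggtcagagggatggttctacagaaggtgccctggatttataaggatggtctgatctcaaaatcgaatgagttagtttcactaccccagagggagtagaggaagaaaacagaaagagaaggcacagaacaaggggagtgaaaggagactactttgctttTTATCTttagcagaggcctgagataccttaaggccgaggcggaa

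Both windows hold the motif on the minus strand. In Cpox there were 2 matches that overlap, between 91 and 81 bases before the RefSeq start, and in Alas2 there was 1 match, between 86 and 81 bases before it. Over all 32851 windows of 250 bases before a RefSeq start, 26.5% held at least 1 such match. The 7 genes had 10 windows in all. Of these genes 3 held a match, each in 1 window, the third being Uros at its downstream start. The share of 26.5% counts windows and not genes, so that it is to be set against the 10 windows. Alas1 had no match at either of its annotated starts. These matches describe the letters of the windows and not binding.

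For Alad, Uros and Urod, which act in the cytosol, no difference beyond the spread between libraries was detected. Alad (chromosome 4, 62509169 to 62519918), which joins aminolevulinate molecules into porphobilinogen, was at 35.8 and 46.5 TPM in the floxed pair, against 46.7 and 36.8 TPM in the knockout pair. The ranges of the genotypes nearly coincided. Alad had a log2 change of 0.02 (95% interval -0.52 to 0.56, limma adjusted p = 0.982), and leaving out single libraries gave between -0.16 and 0.21.

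Uros (chromosome 7, 133686243 to 133710072), which closes the porphyrin ring, was the least abundant gene of the pathway after Alas2 in Setd2f/f, at 13.9 and 12.1 TPM, against 19.5 and 13.8 TPM in Setd2D/D. The higher value came from Setd2D/D replicate 1, and the other library lay within the Setd2f/f range. For Uros the log2 change was 0.32 (95% interval -0.33 to 0.97, limma adjusted p = 0.658), which became 0.089 when Setd2D/D replicate 1 was left out and 0.55 when replicate 2 was.

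Urod (chromosome 4, 116989965 to 116994413), which removes carboxyl groups from uroporphyrinogen, was at 70.8 and 79.2 TPM in the floxed pair, against 53.0 and 75.8 TPM in the knockout pair. Setd2D/D replicate 1 was the low library and replicate 2 lay between the Setd2f/f values. For Urod the log2 change was -0.24 (95% interval -0.77 to 0.30, limma adjusted p = 0.695), which became 0.017 when Setd2D/D replicate 1 was left out and -0.49 when replicate 2 was.

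Of the mitochondrial enzymes that follow Cpox, Ppox was lower and Fech higher in both Setd2D/D libraries, and neither passed limma or the authors' threshold. Ppox (ENSMUSG00000062729, chromosome 1, 171275990 to 171281186), which acts next on the product of Cpox, had the highest mean of the pathway in Setd2f/f, at 86.2 and 77.8 TPM, with a range that overlapped that of Urod, and was at 55.1 and 72.3 TPM in Setd2D/D. Both Setd2D/D libraries lay below both Setd2f/f libraries, replicate 2 by a small margin. The log2 change was -0.37, SE 0.17 (95% interval -0.82 to 0.08, limma adjusted p = 0.496), and it was -0.18 when Setd2D/D replicate 1 was left out and -0.57 when replicate 2 was. In the authors' deposited table, Ppox had a log2 change of -0.26 and did not pass (FDR = 0.470). B4galt3, whose exons share bases with Ppox on the other strand, was at 44.5 and 39.4 TPM in the floxed pair, against 45.0 and 28.3 TPM in the knockout pair.

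Fech (ENSMUSG00000024588, chromosome 18, 64452914 to 64490251) encodes ferrochelatase, which inserts iron to finish heme. It was at 18.1 and 14.5 TPM in the floxed pair, against 21.8 and 18.4 TPM in the knockout pair. The groups did not overlap, but the gap between the nearest libraries was smaller than the gap within either genotype. For Fech the log2 change was 0.29 (95% interval -0.27 to 0.85, limma adjusted p = 0.642), and the authors' deposited table gives 0.35 with an FDR of 0.495. Leaving out single libraries gave between 0.14 and 0.44 for Fech.

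Ratios of genes within a library do not depend on how the libraries are scaled. The Cpox level was 0.237 and 0.254 of the Ppox level in the Setd2f/f libraries and 0.645 and 0.512 of it in the Setd2D/D libraries. This ratio was higher in both Setd2D/D libraries, and its mean was 2.35 times that of Setd2f/f. Since Cpox was higher and Ppox lower without overlap, that direction was fixed by the single genes. The ratios given here restate the Cpox values and are no separate evidence. The Cpox level was 0.289 and 0.250 of the Urod level in Setd2f/f and 0.670 and 0.489 of it in Setd2D/D, so that the ratio to the enzyme just before it was also higher in both Setd2D/D libraries. Cpox made up 6.65% and 6.10% of the summed level of the 8 synthesis genes in Setd2f/f and 11.9% and 10.0% in Setd2D/D. With 2 libraries against 2, an exact 2-sided permutation test cannot go below p = 0.333, and none is given for these ratios.

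Hmox1 (ENSMUSG00000005413, chromosome 8, 75093621 to 75100589, plus strand), the inducible heme oxygenase, was at 19.3 and 22.4 TPM in the floxed pair, against 12.2 and 12.6 TPM in the knockout pair. The Setd2D/D libraries were close together and both below the Setd2f/f pair, a ratio of means of 0.595. The log2 change was -0.70, SE 0.20 (95% interval -1.21 to -0.19), and the limma p was 0.0168 before and 0.390 after adjustment. In the authors' deposited table, Hmox1 had a log2 change of -0.79 and did not pass, with a p-value of 0.00958 and an FDR of 0.175. When any 1 library was left out the change stayed between -0.81 and -0.60. The ratio of Alas1 to Hmox1 was 3.13 and 3.32 in Setd2f/f and 5.58 and 9.004 in Setd2D/D. It restates the values of these genes, of which Alas1 overlapped between genotypes, and is no separate evidence. The value of 9.004 belongs to Setd2D/D replicate 2, the library with the high Alas1. The ratio leaves out Hmox2, another heme oxygenase, which was between 94.0 and 124 TPM and overlapped between genotypes.

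Hmox1 is also abundant in macrophages that clear red cells. Of 14 macrophage markers, 10 were tested, with 7 changes above 0 and 3 below and a median of 0.13. The summed level of the 14 was 88.0 and 89.9 TPM in the floxed pair, against 142 and 114 TPM in the knockout pair. That difference came from Cd68, a lysosomal protein of macrophages, at 26.1 and 33.7 TPM in the floxed pair, against 77.1 and 57.3 TPM in the knockout pair. The other 13 summed to 61.9 and 56.2 TPM and to 65.0 and 56.8 TPM, and overlapped between genotypes. Of the 10 tested, 2 were higher without overlap (Cd68 and Adgre1), 2 lower (C1qa and C1qb) and 6 neither. Over all genes tested 16.8% were higher and 27.6% lower without overlap. By limma 0 of the 10 passed and 1, Cd68, had an unadjusted p under 0.05, against 11.2% of all genes tested. The authors' deposited table places 1 of the 14, Cd68, higher (FDR = 1.92e-08) and 0 lower, against 1.51% and 1.64% of all its genes. The complement gene C1qa was at 7.92 and 7.07 TPM and at 4.22 and 5.13 TPM. C1qb was at 7.72 and 6.40 TPM and at 5.60 and 6.18 TPM. C1qc, of the same complex, was at 7.50 and 4.81 TPM and at 7.71 and 5.19 TPM, and overlapped. Adgre1 was at 1.64 and 1.27 TPM and at 1.96 and 2.08 TPM. None of the 14 was at 0 in all libraries. Cd163, the receptor by which macrophages take up haemoglobin, was at 7.54 and 6.72 TPM in the floxed pair, against 6.89 and 4.53 TPM in the knockout pair. Spic, a factor of red pulp macrophages, was at 9.23 and 7.56 TPM and at 10.3 and 7.79 TPM. The part of such cells in the Hmox1 values was not tested.

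**Figure D2:**
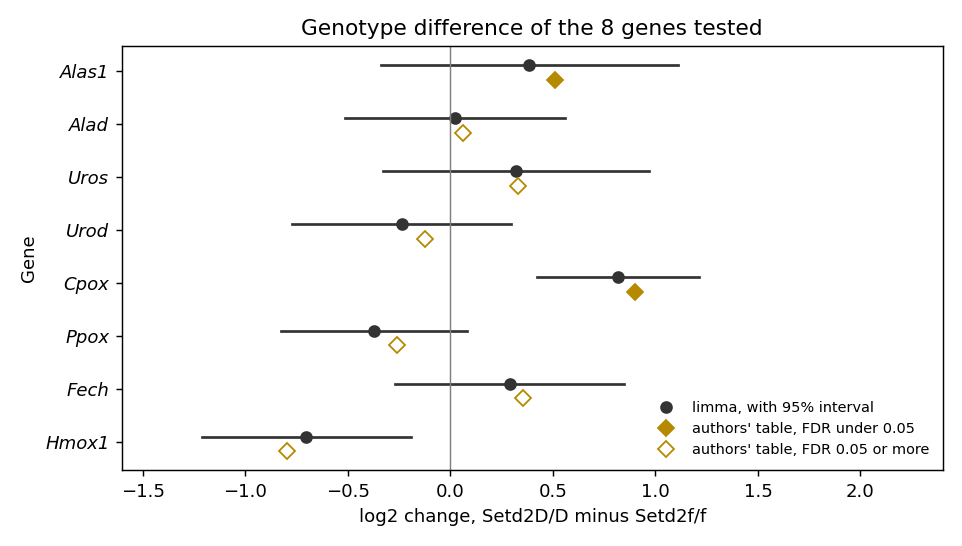
Log2 change (Setd2D/D minus Setd2f/f) of the 8 genes tested, by limma with its 95% interval (circles and lines) and in the authors' deposited table (diamonds, filled where the FDR is under 0.05). The intervals of Cpox, 0.42 to 1.21, and Hmox1, -1.21 to -0.19, do not reach 0, and those of the other 6 genes do.

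In the order of levels, Ppox, Urod and Alas1 formed the upper group in both genotypes. In Setd2f/f the order was Ppox (82.0 TPM), Urod (75.0), Alas1 (67.3), Alad (41.2), Hmox1 (20.8), Cpox (20.1), Fech (16.3), Uros (13.0) and Alas2 (0.945). The neighbours Ppox and Urod, Urod and Alas1, and Hmox1 and Cpox overlapped, and the other neighbours did not. In Setd2D/D, Alas1 (90.6 TPM) had the highest mean, followed by Urod (64.4), Ppox (63.7), Alad (41.8), Cpox (36.3), Fech (20.1), Uros (16.7), Hmox1 (12.4) and Alas2 (0.465). There the ranges of Alas1 and Urod, Urod and Ppox, Alad and Cpox, and Fech and Uros overlapped. Cpox came just before Fech in both orders, and Hmox1 stood above Cpox in Setd2f/f and below Uros in Setd2D/D.

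Of the 8 tested genes, 2 were higher in the knockout pair without overlap (Cpox and Fech) and 2 lower (Ppox and Hmox1). Over all genes tested these shares were 16.8% and 27.6%, so that the counts are near the background. The genes with the most similar pattern over the 4 libraries, whatever their level, by the distance of centred log2(TPM + 1) among 11303 other genes with a mean of at least 5 TPM, were Gm13251 and Dio2 for Cpox (distances 0.059 and 0.069). They were Mypopos and Tnip3 for Hmox1 (0.039 and 0.080), Ubqln2 and Spdl1 for Ppox (0.013 and 0.027), and Cep112os2 and Lrif1 for Fech (0.014 and 0.030). Over 4 libraries and so many genes such closeness is a description only. Dio2, a thyroid hormone deiodinase, was at 3.61 and 3.56 TPM in the floxed pair, against 7.29 and 7.64 TPM in the knockout pair.

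Other genes of heme breakdown and sensing gave 1 call. Of 11 measured genes, 0 passed limma over all genes and the median log2 change was -0.005. An unadjusted limma p under 0.05 was reached by 1, against 11.2% of all genes tested. The authors' deposited table, with 1.51% of all its genes higher and 1.64% lower, places 1 gene of the list higher and 0 lower. That gene was Blvrb, a biliverdin and flavin reductase abundant in red cells, at 26.3 and 23.9 TPM in the floxed pair, against 48.2 and 53.0 TPM in the knockout pair. Both knockout libraries were far above the floxed pair, a ratio of means of 2.01 (log2 change 0.98, SE 0.15, limma adjusted p = 0.211). The authors' deposited table gives Blvrb an FDR of 0.00793. Hmox2, the constitutive heme oxygenase, was at 107 and 124 TPM in the floxed pair, against 94.0 and 118 TPM in the knockout pair, well above Hmox1 in every library. Blvra, the main biliverdin reductase of adult tissue, was at 31.5 and 31.6 TPM and at 26.2 and 28.5 TPM.

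NRF2, its partners and the genes it controls together with Hmox1 gave no call. Of 15 listed genes, 14 were tested, with 4 changes above 0, 10 below and a median of -0.12. The number past the threshold was 0, both in limma (0 also at an unadjusted p under 0.05) and in the authors' deposited table. Nfe2l2, which encodes NRF2, was at 62.7 and 64.8 TPM in the floxed pair, against 59.8 and 50.3 TPM in the knockout pair. Txnrd1, a thioredoxin reductase, was at 81.3 and 84.3 TPM in the floxed pair, against 68.6 and 67.0 TPM in the knockout pair (limma adjusted p = 0.454). Mafg, a small Maf partner of NRF2, was at 43.9 and 40.7 TPM and at 33.8 and 34.7 TPM (limma adjusted p = 0.499). Neither Txnrd1 nor Mafg overlapped between genotypes.

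Iron supply showed 1 call. Of 12 genes of iron uptake, storage and control, 0 passed limma and 2, Tfrc and Slc40a1, had an unadjusted p under 0.05, both higher, with a median log2 change of -0.02. This is near the share of 11.2% over all genes. In the authors' deposited table, where 1.51% of all genes are higher, Tfrc, the transferrin receptor, rose and the other 11 did not pass. Tfrc was at 52.3 and 53.5 TPM in the floxed pair, against 73.2 and 64.6 TPM in the knockout pair (log2 change 0.37, SE 0.13, limma adjusted p = 0.425, authors' deposited table FDR = 0.00612). Slc40a1, the iron exporter ferroportin, was at 6.06 and 6.39 TPM in the floxed pair, against 10.1 and 11.8 TPM in the knockout pair (log2 change 0.72, SE 0.24, limma adjusted p = 0.423, authors' deposited table FDR = 0.619). For both genes the Setd2D/D libraries were above the Setd2f/f pair. Tfr2, the second transferrin receptor, was at 85.5 and 86.6 TPM and at 87.2 and 106.8 TPM.

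Among 16 genes of mitochondrial iron import and iron-sulphur cluster assembly, 0 passed in limma or in what the authors deposited. Their changes were above 0 for 9 and below for 7. An unadjusted limma p under 0.05 was reached by 1 of the 9 and 2 of the 7, against 11.2% of all genes tested. Slc25a37, the iron importer mitoferrin of erythroid cells, was at 52.8 and 45.1 TPM in the floxed pair, against 36.6 and 45.5 TPM in the knockout pair. Iscu, the scaffold on which clusters are built, was at 90.9 and 87.9 TPM and at 56.3 and 69.4 TPM (log2 change -0.51, limma adjusted p = 0.393). Fdx1, a ferredoxin of cluster assembly and steroid synthesis, was at 28.1 and 31.2 TPM and at 21.3 and 20.6 TPM (limma adjusted p = 0.423). Both Setd2D/D libraries were below the Setd2f/f pair for Iscu and Fdx1, and overlapped it for Slc25a37.

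Of 17 measured carriers of heme and porphyrins, 15 were tested, and their median was 0.09. Neither limma nor the authors' deposited table called any (0 genes). An unadjusted limma p under 0.05 was reached by 1 gene, Abcg2, against 11.2% of all genes tested. Slc25a38, a mitochondrial glycine carrier of erythroid heme synthesis, was at 23.8 and 20.3 TPM in the floxed pair, against 34.2 and 22.8 TPM in the knockout pair. Abcg2, a porphyrin exporter of stem cells, was at 36.6 and 44.7 TPM and at 27.9 and 28.0 TPM (log2 change -0.52, limma adjusted p = 0.412). The authors' deposited table gives Abcg2 a smaller log2 change of -0.14, with an FDR of 0.855. Slc25a40, a mitochondrial carrier, was at 16.1 and 13.0 TPM and at 9.07 and 10.3 TPM (limma adjusted p = 0.479). Abcg2 and Slc25a40 were thus lower in both Setd2D/D libraries, and Slc25a38 overlapped. Of 10 genes of glycine and succinyl-CoA supply 0 passed limma, adjusted or not, or the threshold of the authors' deposited table, and their median was -0.04. Suclg1, a subunit of succinyl-CoA synthetase, was at 121.8 and 117.7 TPM in the floxed pair, against 108 and 100.5 TPM in the knockout pair. Ogdh, a subunit of the complex that makes succinyl-CoA, was at 97.2 and 107 TPM and at 82.0 and 97.5 TPM, and overlapped between genotypes.

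Among 15 genes whose proteins carry or handle heme, or belong to the peroxidases, 0 passed limma, with a median log2 change of 0.03. An unadjusted limma p under 0.05 was reached by 3, Mpo and Cyb5a as higher and Prdx2 as lower, against 11.2% of all genes tested. The authors' deposited table places 3, Mpo, Epx and Cycs, higher and 0 lower, against 1.51% and 1.64% of all its genes. Mpo, the heme-containing myeloperoxidase of neutrophil precursors, was at 815 and 943 TPM in the floxed pair, against 1427 and 1878 TPM in the knockout pair (log2 change 0.90, limma adjusted p = 0.260, authors' deposited table FDR = 1.06e-12). Markers of granulocyte and monocyte precursors, Mpo included, summed to 2777 and 3368 TPM in the floxed pair, against 3332 and 5083 TPM in the knockout pair, and their part in the Mpo value was not tested. Without Mpo the other 12 summed to 1962 and 2426 TPM and to 1905 and 3205 TPM, which overlap. Of the 13 markers 7 were above 0 and 6 below, and the authors' deposited table places 5 higher and 3, Csf3r, Ngp and Ltf, lower. Epx, the eosinophil peroxidase, was at 2.03 and 7.13 TPM and at 4.89 and 17.7 TPM. Cycs, cytochrome c, was at 28.2 and 39.3 TPM and at 31.0 and 54.2 TPM. For Epx and Cycs the groups overlapped and Setd2D/D replicate 2 was the high library, as it was for Alas1.

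**Figure D3:**
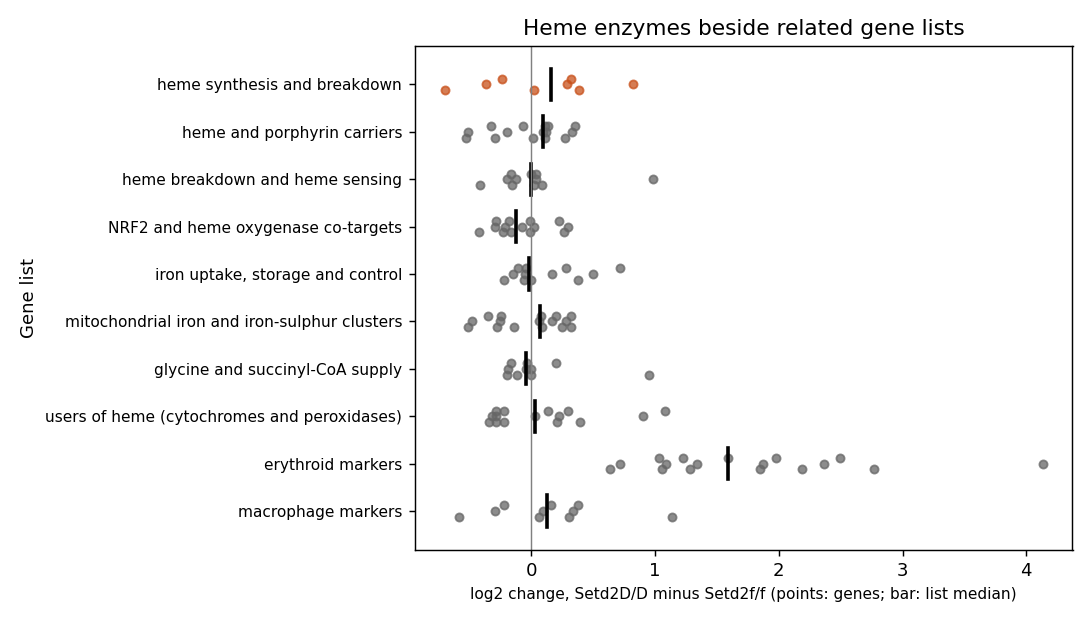
Log2 change (Setd2D/D minus Setd2f/f, limma scale) of each tested gene, a point, in the heme synthesis and breakdown genes, 7 related lists and the erythroid and macrophage markers, with a bar at each median. The heme genes spread on both sides of 0 around a median of 0.16, while the 17 erythroid markers all lie above 0 around 1.59.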

How the data were processed

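The authors deposited TPM values per gene for the 4 libraries. The submitters' processing notes name cutadapt, RSEM, edgeR and mm10 but give neither their role nor a version. Per the file headers, the second table holds for 23955 genes the authors' fold change as a ratio and as log2, the mean log2 CPM, the F statistic (a score), the p-value and its FDR, and these carry no error here. A comma in a gene name had shifted 5 rows of the TPM table and 2 of the comparison, none of a gene named here, and the fields were put back. Read numbers are in neither table, so that the depth behind a TPM value is known only through the mean log2 CPM.

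TPM values were transformed to log2(TPM + 1) for genes at 1 TPM or more in at least 2 libraries and fitted with limma 3.58.1 in R 4.3.3, with genotype as the 1 term, a variance trend, 2-sided tests and Benjamini-Hochberg adjustment over all genes. The script was tested on simulated data. The pseudocount understates changes of low genes. Positions are from GENCODE M21 on GRCm38 (46005 of 46517 identifiers matched).

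The genes, lists and motifs were chosen with earlier results of these data known. Named by rule were all 9 genes, Setd2, the nearest genes by pattern over the libraries, and from each list the genes past a threshold (up to 4) or else the 2 with the smallest limma p among those at 5 TPM or more. The other list genes and markers were added after their values were seen. The 14 alternatives were other pseudocounts (0.1, 0.5), filters (none, 5 TPM), scalings (trimmed means of M values, median ratios, quantiles) and moderation (no trend, robust), a block for the replicate number, and leaving out each library in turn.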

Additional observations from a re-analysis of the deposited data

How the results depend on the processing

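The 8 tested genes of the pathway had 0 calls by limma under all 14 alternatives, and 109 of their 112 values kept their direction and their side of the threshold. With single libraries left out, Alad ranged from -0.16 to 0.21, being below 0 without Setd2f/f replicate 1 or without Setd2D/D replicate 1, and Urod from -0.49 to 0.017, being above 0 without Setd2D/D replicate 1. Of the other named genes, Cycs ranged from -0.10 to 0.69 and Hmox2 from -0.29 to 0.038. The smallest adjusted p of any of the 8 genes under an alternative was 0.197. Over all genes, 10 were called, against 3 with a pseudocount of 0.1, 0 with no filter, 19 without the variance trend, 0 with the replicate block and 0 whichever library was left out, where the lone library of a genotype is assumed to vary like the other pair. The cause of these moves was not tested. The median change of the 8 genes ranged from 0.038 (without Setd2f/f replicate 1) to 0.23 (quantiles). The number of all genes at an unadjusted p under 0.05 was 1647 and ranged from 554 to 2928 with single libraries left out. The replicate block changed no call in the pathway. Replicate differences correlated at 0.041 across genes between genotypes, so that no strong effect shared by replicate number was seen. Whether libraries of the same number were prepared together is not stated in the labels, and this correlation cannot decide it.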
